A study of Homo sapiens with 4 samples.

Results

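The insulin-like growth factor (IGF) axis was followed in SW480 cells through 10 genes: the IGF binding protein genes IGFBP1 to IGFBP7, the receptor genes IGF1R and IGF2R, and IRS1, which encodes a receptor substrate. Every probe set that the platform annotation pairs with one of these symbols alone was taken, which gave 27 of the 54613 probe sets tested; the 10 genes are among 19775 with a symbol of their own. Of the genes, IGFBP2, IGFBP4 and IGFBP6, had a single probe set. SW480 is an established colorectal adenocarcinoma line, grown here in DMEM with serum. The study compared 2 arrays from cells labelled HOXA5 knock down with 2 from cells labelled HOXA5 overexpressing. HOXA5 encodes a homeobox transcription factor, and the cells had been transduced to lower or raise it. No untransduced or vector-only arrays were among the samples, so each difference below is overexpressing minus knock-down and cannot be assigned to either manipulation. The labels do not say which constructs or clones were used, or whether replicates were separate cultures; p-values measure the spread between these arrays, which may be technical.

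IGF1 and IGF2 are secreted growth factors that act through the tyrosine kinase IGF1R, which recruits IRS1 and related docking proteins and passes the signal to the PI3K-AKT and Ras-ERK cascades. IGF2R, also the cation-independent mannose 6-phosphate receptor, takes up IGF2 for degradation and carries lysosomal enzymes. IGFBP1 to IGFBP6 bind IGFs with high affinity outside the cell and can hold them from the receptor or release them near it after cleavage by proteases, whereas IGFBP7 binds IGFs weakly. The axis is known as a growth and survival pathway of the colonic epithelium and of colorectal cancers.

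Values were RMA log2 expression as deposited, with array medians of 5.77 to 5.81. Arrays of the same group correlated at 0.997 over the 54613 probe sets and arrays of different groups at 0.991 to 0.993. HOXA5 itself was not analysed here, so the labels were not checked on the manipulated gene. Of 11 markers of colorectal epithelium, KRT19, EPCAM and CDX2 were higher in the overexpressing arrays (limma, 1 probe set per gene), and the summed log2 levels of the 11 were 75.7 to 76.7 in the knock-down and 86.5 to 86.8 in the overexpressing arrays. The log2 differences of EPCAM (5.05) and KRT19 (4.38) made up most of that gap, while those of KRT8 (-0.11), KRT18 (-0.04), CDX1 (-0.05) and LGALS4 (-0.09) were slightly below 0 and did not pass. CDH1 was higher by 0.60 with groups that did not overlap, and was just outside the threshold (limma adjusted p = 0.0516). The keratin genes KRT8 and KRT18 stood at 13.02 and 13.86 in the knock-down arrays. Summed levels of 8 fibroblast markers were 47.1 to 47.3 and 46.5 to 47.5, those of 5 endothelial markers 28.7 to 28.9 and 28.5 to 29.0, and those of 4 leukocyte markers 19.6 to 20.3 and 19.2 to 19.5. RMA gives no detection call, so none of these markers could be called absent. What part the differences in KRT19, EPCAM and CDX2 have in the results below was not tested.

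IGFBP2 was the gene of the axis that differed most. It rose 3.23-fold in the overexpressing arrays, while the other binding protein genes differed by at most 0.53 on the log2 scale. Every overexpressing array lay above every knock-down array on all 3 probe sets of IRS1 and both of IGFBP3, none of which passed over all probe sets. IGF1R was split, with groups apart downward on 3 of its 5 probe sets, 1 of which passed, and apart upward on 1. Past an adjusted p of 0.05 (limma, Benjamini-Hochberg over all probe sets), 1 of the 27 probe sets was higher and 1 lower. Over all probe sets, 1.97% passed, with 1.36% higher and 0.613% lower. The groups did not overlap on 17 of the 27 probe sets, with 13 higher and 4 lower, against 43.1% of all probe sets (18.7% higher and 24.5% lower). IGF1R, IGF2R and IRS1 gave 4, 3 and 3 of the 17, and probe sets of the same gene are not independent readings. The median difference of the 27 was 0.092 on the log2 scale, beside -0.015 over all probe sets. As an exact permutation test over 2 against 2 arrays cannot give a two-sided p below 0.333, each call rests on the spread that limma shares across probe sets.

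**Figure D1:**
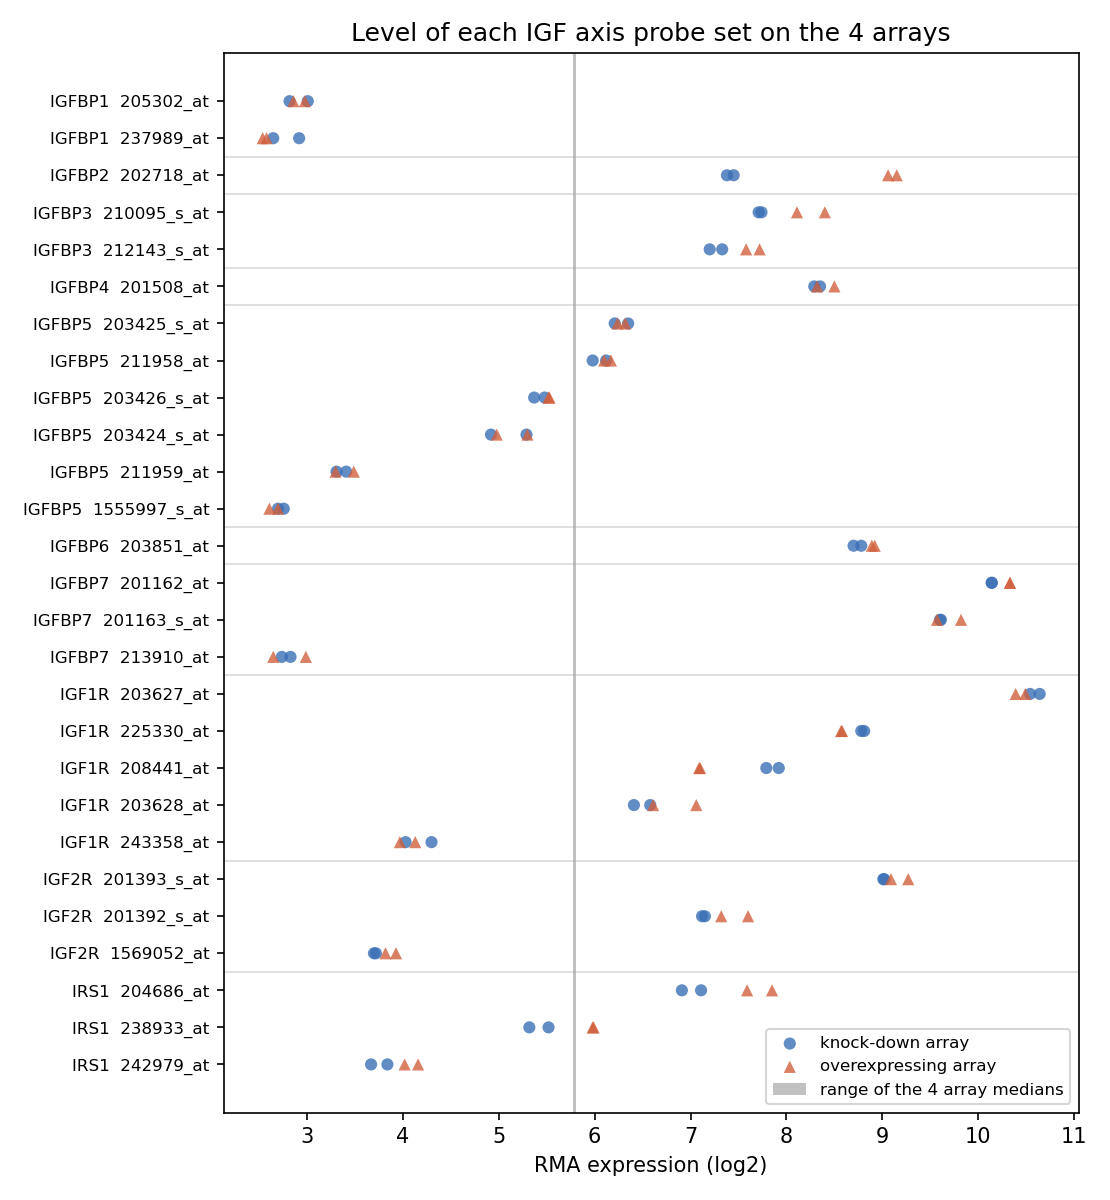
Log2 expression of the 27 probe sets of the IGF axis on each array; circles are knock-down arrays, triangles overexpressing arrays, and the grey band spans the array medians (5.77 to 5.81). IGFBP2 shows the widest gap, from 7.38 and 7.45 to 9.06 and 9.15, and 10 probe sets lie below the median of every array.

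IGFBP2 encodes a secreted binding protein with a preference for IGF2. Its probe set read 7.38 and 7.45 with knock-down and 9.06 and 9.15 with overexpression. The arrays of a group lay within 0.1 of each other and the groups were far apart. The difference was 1.69 ± 0.09 on the log2 scale (SE, 2 arrays per group, limma adjusted p = 0.000817), with a 95% interval of 1.48 to 1.90. Its level lay above 73.9% of the probe sets on the lowest array and above 88.5% on the highest, so the rise did not start at the bottom of the scale. Whichever array was left out, the difference was 1.65 to 1.74. In a fit of all 4 arrays with 1 probe set per gene, the brightest, the limma adjusted p was 0.000236.

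The bases before the annotated starts of IGFBP2 and IRS1 are shown because these genes were the members past the threshold, in the same direction, in the fit per gene. They are the 250 bases upstream of RefSeq transcript starts on GRCh38.p14: chr2:216632578-216632827 (plus strand) and chr2:216633170-216633419 (plus strand) for IGFBP2, and chr2:226799821-226800070 (minus strand) for IRS1. Capitals mark TAAT or ATTA, the core of many homeodomain sites, and the GC box GGGCGG or CCGCCC.
IGFBP2 upstream window 1: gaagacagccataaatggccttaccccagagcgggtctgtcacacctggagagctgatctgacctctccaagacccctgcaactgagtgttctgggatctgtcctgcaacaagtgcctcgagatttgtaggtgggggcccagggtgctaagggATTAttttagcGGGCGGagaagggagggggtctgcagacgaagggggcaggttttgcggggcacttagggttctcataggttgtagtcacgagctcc
IGFBP2 upstream window 2: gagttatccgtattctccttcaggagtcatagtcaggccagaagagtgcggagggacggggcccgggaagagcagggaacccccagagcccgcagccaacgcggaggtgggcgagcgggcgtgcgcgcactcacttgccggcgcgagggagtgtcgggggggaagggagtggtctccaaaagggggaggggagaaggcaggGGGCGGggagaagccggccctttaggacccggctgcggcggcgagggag
IRS1 upstream window: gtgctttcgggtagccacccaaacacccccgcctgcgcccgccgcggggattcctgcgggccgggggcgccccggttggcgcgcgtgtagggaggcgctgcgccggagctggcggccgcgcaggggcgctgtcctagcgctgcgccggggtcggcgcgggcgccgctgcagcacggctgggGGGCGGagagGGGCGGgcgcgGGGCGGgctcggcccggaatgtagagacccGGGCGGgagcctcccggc
Window 1 of IGFBP2 held 1 homeodomain core, which starts 97 bases before the transcript start, and 1 GC box at 86 bases. Window 2 held 1 GC box and no such core, with 22 CpG dinucleotides and 69.2% G and C. The IRS1 window held 4 GC boxes, no homeodomain core and 39 CpGs at 80.8% G and C. Window 2 lies beyond the start that follows window 1, and whether it is part of a transcript from that start was not analysed here. A further IGFBP2 start, later in the gene, had 2 overlapping homeodomain cores at 215 and 213 bases and no GC box. The table held 10 windows for 8 of the genes, namely IGFBP2 to IGFBP6, IGF1R, IGF2R and IRS1. A homeodomain core was found in 2 of these 10 windows, both of IGFBP2, against 47.4% of 35116 windows of the same length over all genes. A GC box was found in 8 of the 10, against 42.6% of all. Over all windows the medians were 58.0% G and C and 11 CpGs, while the 10 ran from 56.4% to 81.2% G and C. What part base composition has in the motif counts was not tested. The TCF/LEF motif CTTTGAT or ATCAAAG was in none of the 10, against 2.26% of all. These matches describe the letters of the windows and are not binding sites.

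IGFBP3 encodes the main carrier of IGFs in serum, which also has actions on growth arrest and apoptosis. Its brighter probe set read 7.71 and 7.74 with knock-down and 8.11 and 8.40 with overexpression. The other read 7.20 and 7.33 against 7.58 and 7.72. Both put every overexpressing array above every knock-down array. The differences were 0.53 ± 0.12 and 0.38 ± 0.09 on the log2 scale (SE), with 95% intervals of 0.24 to 0.81 and 0.15 to 0.62, but neither passed over all probe sets (limma adjusted p = 0.108 and 0.141). With 1 probe set per gene IGFBP3 was just outside the threshold (adjusted p = 0.0549), and it passed when its probe sets were averaged (0.46, adjusted p = 0.0405).

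IGFBP4, IGFBP6 and IGFBP7 were at levels above the array medians on their brightest probe sets and differed by at most 0.19. IGFBP4, which encodes a mostly inhibitory binding protein cleaved by the protease PAPPA, read 8.29 and 8.35 with knock-down and 8.32 and 8.50 with overexpression, so the groups overlapped. IGFBP6, whose product prefers IGF2, read 8.70 and 8.78 against 8.89 and 8.92. Its groups did not overlap, but the difference of 0.17 did not pass (95% interval -0.03 to 0.37, limma adjusted p = 0.428).

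The brightest probe set of IGFBP7, an extracellular matrix protein also called MAC25, read 10.14 on both knock-down arrays and 10.33 on both overexpressing arrays. This was the tightest pair of groups among the binding proteins, with SDs of 0.005 and 0.003, yet the difference of 0.19 did not pass (limma adjusted p = 0.353), and its 95% interval reached up to 0.38. A bright second probe set of IGFBP7 gave 0.09 with overlapping groups (9.61 and 9.60 against 9.82 and 9.57). The third lay at 2.65 to 2.99, above at most 7.8% of the probe sets on any array, and gave 0.04.

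IGFBP1 and IGFBP5 did not pass on any of their 8 probe sets. IGFBP1, a binding protein best known from liver and decidua, read 2.54 to 3.01 over its 2 probe sets and all arrays, above at most 7.9% of the probe sets of an array. Without a detection call, such values could not be told from background. The probe set 237989_at read 2.92 and 2.65 against 2.58 and 2.54, so its groups did not overlap, but the difference of -0.23 did not pass (limma adjusted p = 0.438) and ran from -0.36 to -0.09 with an array left out. The other IGFBP1 probe set gave 0.01. IGFBP5, the most conserved of the family, had 6 probe sets that read from 2.61 to 6.35, with 4 below the median of every array. Their differences ran from -0.07 to 0.10 on the log2 scale, and the groups overlapped on 5 of the 6. The brightest IGFBP5 probe set was at 6.35 and 6.21 with knock-down and 6.32 and 6.24 with overexpression (difference 0.00, 95% interval -0.23 to 0.23).

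IGFBP2 and IGFBP5 are next to each other on chromosome 2 in the RefSeq order of protein-coding genes, and IGFBP1 and IGFBP3 on chromosome 7. In the fit per gene, IGFBP2 rose by 1.69 while IGFBP5 differed by 0.00. RPL37A, the neighbour of IGFBP2 on its other side, differed by -0.01, and TNP1, beyond IGFBP5, by 0.01. On chromosome 7, IGFBP3 was at 0.53, IGFBP1 at 0.01 and TNS3, the tensin gene beyond IGFBP3, at 0.18. None of these neighbours passed other than IGFBP2 (limma adjusted p of 0.0549 for IGFBP3 and at least 0.364 for the rest). IGFBP4 and its neighbours TOP2A and TNS4 differed by 0.09, -0.14 and 0.11. Neighbours without a probe set of their symbol alone were not read, which left a side out for IGFBP1, IGFBP7, IGF1R and IGF2R. Among the neighbours read for the other members, ARRDC4 beside IGF1R (0.40) and MAS1 beside IGF2R (-0.36) differed most. Their groups did not overlap, but neither passed (limma adjusted p = 0.0973 and 0.0534).

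**Figure D2:**
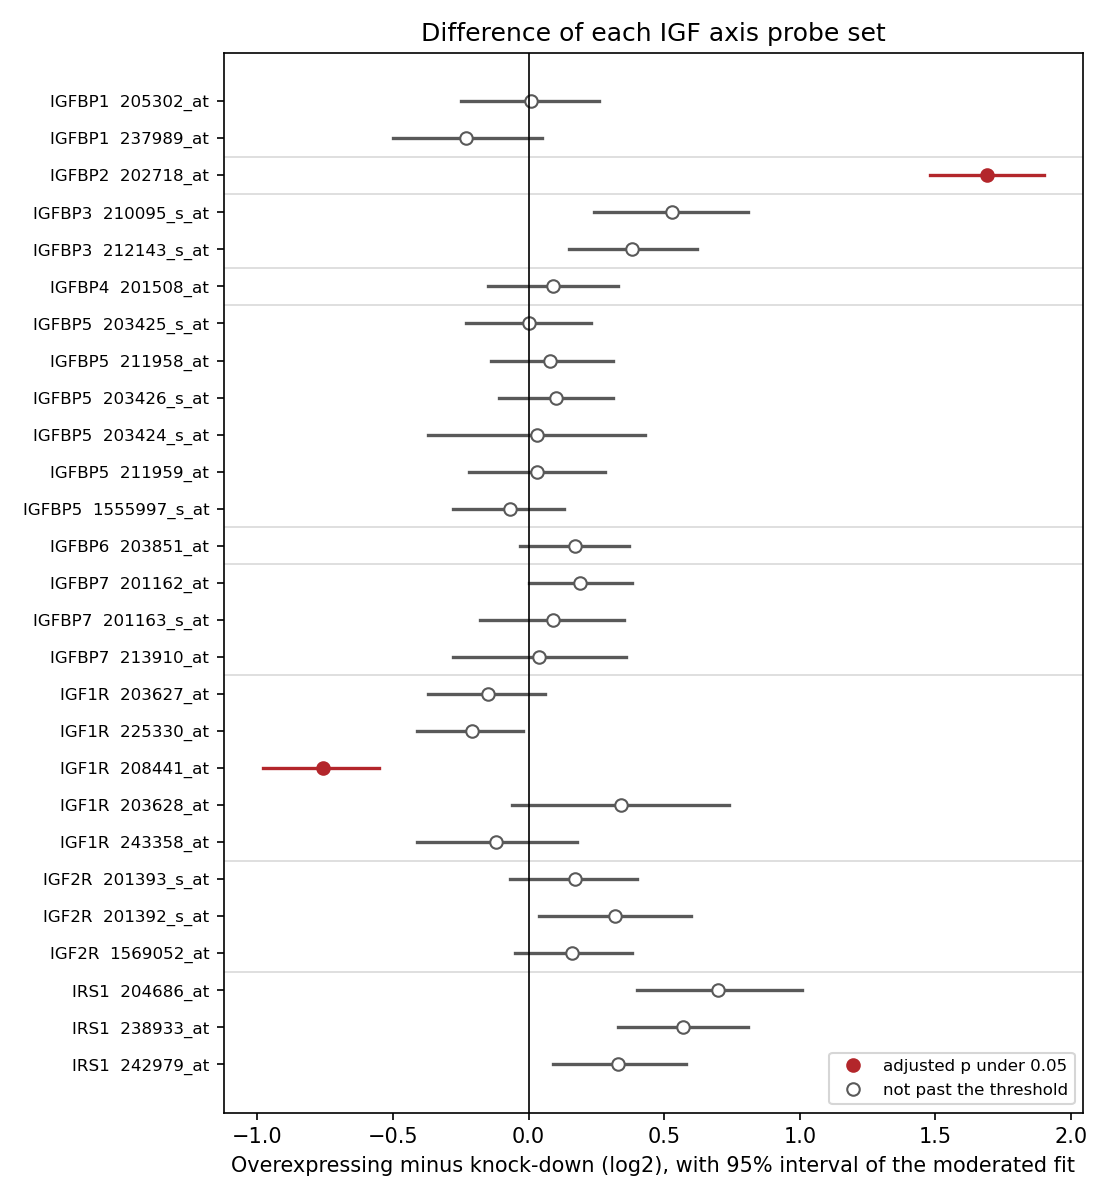
Difference between overexpressing and knock-down arrays (log2) for each probe set of the IGF axis, with the 95% interval from limma; filled red points passed an adjusted p of 0.05. IGFBP2 (1.69) and 1 of the 5 IGF1R probe sets (-0.76) passed, and the 3 IRS1 and 2 IGFBP3 intervals lie above 0 without passing. The interval of IGF2R 201392_s_at (0.04 to 0.60) also lies above 0 and that of IGF1R 225330_at (-0.41 to -0.02) below 0, without passing.

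The probe sets of IGF1R, the signalling receptor for IGF1 and IGF2, did not move together. The probe set 208441_at read 7.79 and 7.92 with knock-down and 7.09 and 7.10 with overexpression. Every overexpressing array was lower, by more than the gap between replicates. It fell by 0.76 ± 0.09 on the log2 scale (SE, limma adjusted p = 0.0155, 95% interval -0.98 to -0.55). Whichever array was left out, the difference was -0.83 to -0.69.

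The brightest IGF1R probe set, 203627_at, read 10.54 and 10.64 against 10.39 and 10.49, a difference of -0.15 with groups that did not overlap (limma adjusted p = 0.513). The next, 225330_at, read 8.78 and 8.81 against 8.58 and 8.57, a difference of -0.21 (adjusted p = 0.296). Both were lower in every overexpressing array, but their 95% intervals (-0.37 to 0.06 and -0.41 to -0.02) do not reach that of 208441_at. In the other direction, 203628_at read 6.41 and 6.58 against 6.61 and 7.06, a difference of 0.34 (adjusted p = 0.414), which was 0.11 without overexpressing replicate 2 and 0.57 without overexpressing replicate 1. The dim 243358_at read 4.03 and 4.30 against 3.97 and 4.13, with overlapping groups. With its brightest probe set standing for the gene, IGF1R did not pass (-0.15, adjusted p = 0.399). Which transcripts each probe set detects was not analysed here, and the difference between the probe sets was not tested.

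IGF2R was higher by small amounts on all 3 of its probe sets, and none passed. The brightest read 9.01 and 9.02 with knock-down and 9.09 and 9.27 with overexpression, a difference of 0.17 (95% interval -0.07 to 0.40). The second read 7.12 and 7.15 against 7.32 and 7.60, a difference of 0.32 (95% interval 0.04 to 0.60, limma adjusted p = 0.275). The third, low on the scale, read 3.72 and 3.70 against 3.82 and 3.93. On each of the 3 the overexpressing arrays lay above the knock-down arrays, and overexpressing replicate 2 was the highest. Without that array the first and second differences were 0.08 and 0.18, and without overexpressing replicate 1 they were 0.26 and 0.46.

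IRS1, the docking protein that links IGF1R and the insulin receptor to PI3K, was higher on all 3 of its probe sets with no overlap between groups. The brightest, 204686_at, read 7.11 and 6.91 with knock-down and 7.85 and 7.59 with overexpression. The second, 238933_at, read 5.52 and 5.32 against 5.99 and 5.98. The third, 242979_at, read 3.84 and 3.67 against 4.02 and 4.16.
The closest arrays of the groups were 7.11 and 7.59, 5.52 and 5.98, and 3.84 and 4.02, and on the third probe set this gap was about as wide as that between replicates. The log2 differences were 0.70 ± 0.12, 0.57 ± 0.10 and 0.33 ± 0.10 (SE), or 1.63-fold, 1.48-fold and 1.26-fold. Over all probe sets they were outside the threshold (limma adjusted p = 0.0607, 0.0558 and 0.208). In the fit per gene IRS1 passed (adjusted p = 0.0278), where 4.77% of genes passed. Whichever array was left out, its difference was 0.57 to 0.83. In the fit per gene of all arrays 2 of the 10 genes of the axis passed, IGFBP2 and IRS1, both higher, against 2.74% of all genes called higher.

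**Figure D3:**
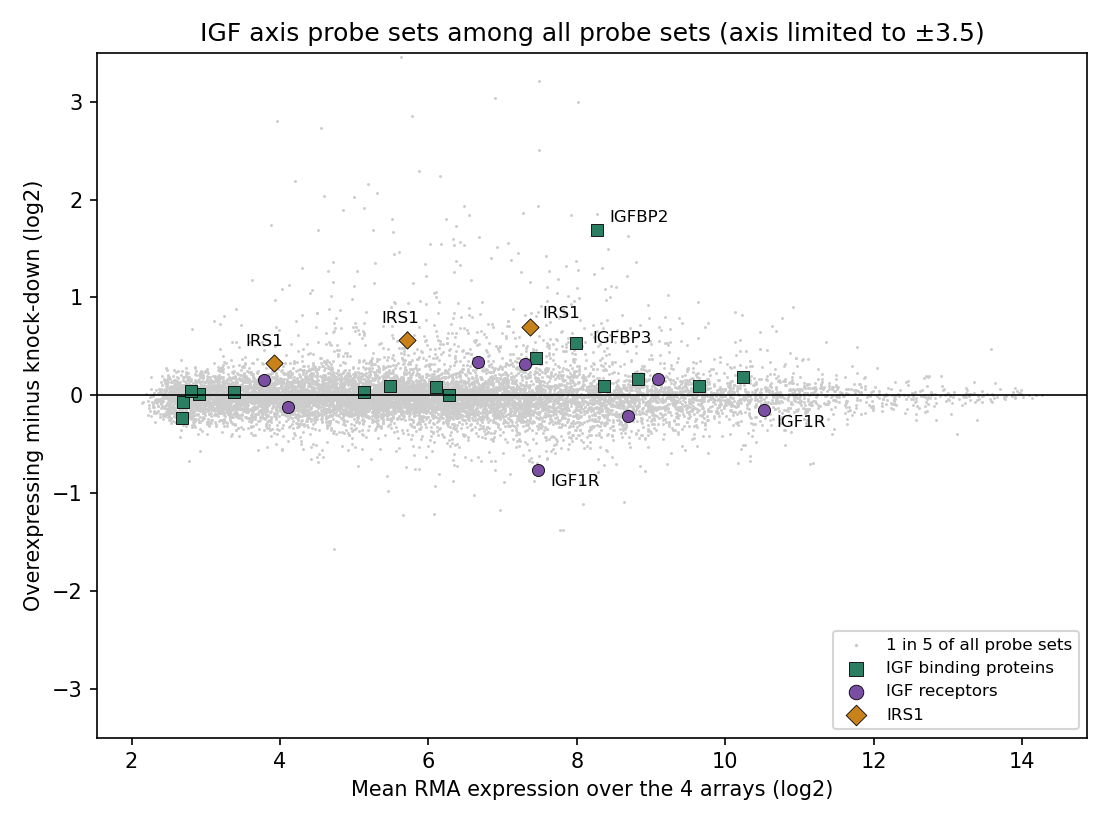
Difference between groups against mean level (both log2) for the IGF axis probe sets and, in grey, 1 in 5 of all probe sets; the vertical axis is limited to ±3.5. IGFBP2 stands at 1.69 and the IGF1R probe set 208441_at at -0.76, while most other points lie within the grey band around 0.

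The 3 genes whose profile over the 4 arrays was nearest to that of IGFBP2, by Euclidean distance after each gene's mean was subtracted, were SPINT2 (distance 0.033 on the log2 scale), WFDC1 (0.055) and PLEKHG1 (0.074). SPINT2, which encodes a Kunitz-type inhibitor of serine proteases, read 7.09 and 7.21 with knock-down and 8.80 and 8.89 with overexpression. WFDC1, a whey acidic protein domain gene, read 10.90 and 11.02 against 12.62 and 12.65. PLEKHG1 read 5.17 and 5.25 against 6.77 and 6.91. With 4 arrays in 2 groups the measure mostly finds genes with a like difference between the groups.

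Other genes of the IGF pathway were taken from 9 lists, of whose 77 entries 67 had a probe set with their symbol alone; each gene stands on its brightest probe set. Past the threshold 5 were higher and 2 lower, or 10.4% of the 67, where 4.77% of all genes passed (2.74% higher and 2.03% lower). Over all probe sets, GRB14, PHLDA3 and FOXO1 also passed on the same probe sets (adjusted p = 0.0089, 0.0167 and 0.0492), whereas PIK3R3 (0.056), GRB10 (0.0643), INPP5D (0.0909) and HTRA1 (0.0974) did not. The median difference of the 67 was -0.042 on the log2 scale, beside -0.019 over all genes. In a fit of only the genes above the median mean level, 13.7% of 9887 genes passed, with 8 of the pathway genes among them. How many of the 67 entered that fit was not counted, so the 10.4% was not set against genes of like level.

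Among 13 adaptors and docking proteins, GRB14 fell and GRB10 rose. These encode related adaptors that bind the activated insulin and IGF1 receptors and dampen their signal. GRB14, on its sole probe set, read 6.82 and 6.70 with knock-down and 5.88 and 5.89 with overexpression (difference -0.87 ± 0.08, SE, limma adjusted p = 0.00281). GRB10 read 6.86 and 7.10 against 7.59 and 7.90 (0.77 ± 0.13, adjusted p = 0.0292). The groups of both genes were well apart, in opposite directions. The other 3 probe sets of GRB10 gave 0.07, 0.17 and 0.05. The one that stands for the gene is the brightest only through the overexpressing arrays, as its knock-down mean of 6.98 was below the 7.11 of the probe set that gave 0.07, and the mean of all 4 did not pass (0.27, adjusted p = 0.127). IRS2, the docking protein closest to IRS1, read 11.32 and 11.30 against 11.16 and 11.18 and did not pass (-0.14, adjusted p = 0.368).

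Of 13 negative regulators, 6 had every overexpressing array above every knock-down array, and 2 had every one below. Over the 67 genes of all lists these counts were 20 and 20. Over all probe sets the shares were 18.7% and 24.5%, and the share over all genes was not counted. Past the threshold were 2 of the 6. PHLDA3, a p53-induced gene whose product competes with AKT for membrane lipids, read 6.45 and 6.48 against 7.14 and 7.13 (difference 0.67). INPP5D, a phosphatidylinositol phosphatase gene best known from blood cells, read 5.76 and 5.78 against 6.17 and 6.15 (difference 0.39). The other probe set of PHLDA3 gave 0.39; it was the brighter in the knock-down arrays (mean 6.55 against 6.46), so the choice of probe set rested on the overexpressing arrays. The weaker probe sets of INPP5D gave -0.15 and 0.11, and INPP5D did not pass as a mean (adjusted p = 0.51). FOXO1, the AKT-restrained forkhead factor that activates IRS2 and IGFBP1 in liver, rose by 0.56 and was the FOXO gene of 4 that passed. It read 7.37 and 7.24 against 7.82 and 7.92; a second probe set gave 0.66 and a dim one -0.08.

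HTRA1, a secreted serine protease that can cleave IGF binding proteins, rose by 0.47 and was the gene of 12 on the protease list that passed (8.32 and 8.46 against 8.79 and 8.94). PIK3R3, a regulatory subunit of PI3K, fell by 0.51 among 11 genes from PI3K to mTOR (7.94 and 7.95 against 7.37 and 7.50), while its dimmer probe set gave -0.12. None passed among 4 ligands and binding subunit genes, 2 other receptors, 3 IGF2 mRNA-binding protein genes or 5 Ras to ERK kinases. The brightest of these were IGF1 at 0.02 (6.51 and 6.40 against 6.54 and 6.42), INSR, the insulin receptor, at 0.20, IGF2BP3 at -0.10 and MAP2K2 at -0.08. IGF2BP3 probe sets disagreed, with 0.39, -0.05 and 0.45 on the weaker ones. With each array left out in turn, GRB14 differed by -0.93 to -0.81, and the other 6 genes kept their direction.

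**Figure D4:**
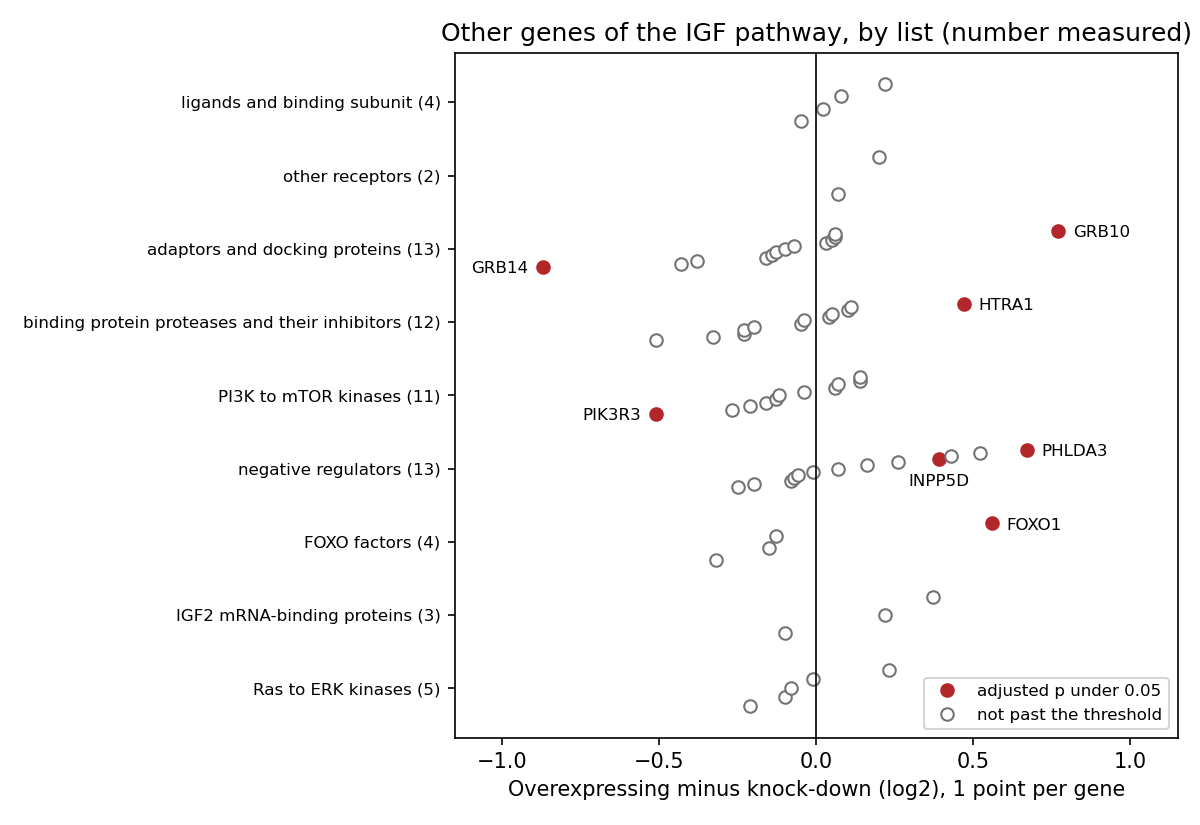
Difference between overexpressing and knock-down arrays (log2) for 67 other genes of the IGF pathway in 9 lists, 1 point per gene on its brightest probe set; filled red points passed an adjusted p of 0.05 in limma. The 7 named genes passed, with GRB10 at 0.77 and GRB14 at -0.87 at the ends of the range.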

How the data were processed

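RNA from 4 SW480 samples was measured on Affymetrix arrays, 1 array each. The authors deposited log2 expression values; the submitters' processing notes name RMA and the affy package without versions. RMA corrects background, equalises the distributions of the arrays and summarises probe sets; a fold from a value near the floor of the scale depends on that floor. Precision is limited by having 4 arrays.

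Of 54675 probe sets, 62 controls were left out. Symbols came from the platform annotation, which gave 41091 probe sets a single symbol (41037 matched to RefSeq by gene identifier). Groups and replicate numbers came from the titles. All 54613 other probe sets were fitted with limma 3.58.1 in R 4.3.3 (lmFit on the group alone, eBayes, two-sided), with Benjamini-Hochberg adjustment and a threshold of 0.05; there was no dimness filter. The same fit was run with the brightest probe set of each of 19775 genes. The procedure was tested on simulated data. Alternatives are given in the closing section. Members, lists and tests were chosen with earlier results of these data known. All probe sets of the 10 genes are reported; from each pathway list the genes past the threshold (at most 4) or else the brightest are named, with IRS2 and the chromosomal neighbours chosen after their values were seen. Upstream windows came from RefSeq.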

Additional observations from a re-analysis of the deposited data

How the results depend on the processing

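With an intensity trend and robust moderation, 4.46% of all probe sets passed against 1.97%. Of the 27 probe sets of the axis 5 then passed (IGFBP2, IGF1R 208441_at, IRS1 204686_at and 238933_at and IGFBP3 210095_s_at). With the arrays centred on their medians (2.50% of all) 4 passed, the same without IGFBP3. Past an adjusted p of 0.1 there were 4 and past 0.01 there was 1. The shares of all probe sets past these 2 thresholds were not counted. When only probe sets above the median mean level were fitted, 3 of the axis passed, where 5.42% of those fitted did. The like fit per gene gave 3 genes of the axis, where 13.7% of those fitted passed. Of the 67 other pathway genes 15 passed with the trend, where 9.21% of all genes did against 4.77%. Past an adjusted p of 0.01 there were 2 of them, and the share of all genes there was not counted. The cause of these shifts was not tested. Leaving out an array leaves a single array in its group, so calls from those runs are not counted here. With the replicate number as a replicate block 1 probe set passed (0.811% of all), that of IGFBP2 (adjusted p = 0.0185), and 3 pathway genes (2.63% of all genes); IGF1R 208441_at was then at an adjusted p of 0.0675. Deviations of same-numbered arrays correlated at 0.15, with only 2 pairs, so the numbers were not taken as pairing. IGFBP2 and the IGF1R probe set kept their direction under each alternative run. Differences near 0 changed sign: IGFBP1 205302_at was -0.01 with centred arrays, and IGFBP5 203425_s_at -0.02 with centred arrays and -0.01 after a second quantile normalization. With an array left out, IGFBP1 205302_at ran from -0.09 to 0.10, IGFBP4 from 0.00 to 0.19, IGFBP5 203425_s_at from -0.07 to 0.07, 203424_s_at from -0.16 to 0.22 and 211959_at from -0.06 to 0.13, IGFBP7 201163_s_at from -0.04 to 0.21 and 213910_at from -0.13 to 0.21, IGF1R 243358_at from -0.25 to 0.02, and IGF1 from -0.04 to 0.09. With all probe sets of a gene averaged, IGF1 was at -0.02 and IGF2BP3 at 0.17.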
